A study of Mus musculus with 6 samples.

Results

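Trp53, which encodes p53, was examined together with 9 of its regulators and target genes, namely Mdm2, Mdm4, Bax, Bbc3, Ccng1, Sesn2, Zmat3, Gdf15 and Eda2r, in immortalized WT and AS podocytes. The genes were taken from a list by mouse symbol, and the 10 genes were all found among the 57132 genes of the count table. Trp53 itself was at 0.940 times its WT level in AS podocytes (95% interval 0.869 to 1.02) and did not pass the test, whereas Mdm2, Mdm4, Bax, Bbc3 and Eda2r were 1.22 to 1.63 times as abundant and Gdf15 fell to 0.292 times its WT level. Ccng1 was also lower, at 0.816 times its WT level, while Sesn2 and Zmat3 did not pass the test.

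p53 is a transcription factor that is kept at low levels by continual destruction. Mdm2 is the ubiquitin ligase that marks p53 for the proteasome, and Mdm4 is a related protein that binds p53 and blocks its activation domain. When DNA damage or other stress frees p53 from Mdm2, it binds DNA and raises the transcription of genes of cell cycle arrest, DNA repair and cell death, and of Mdm2 itself, so that its activity is governed mainly at the level of the protein and not of its mRNA.

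RNA was sequenced from 3 libraries of untreated WT podocytes (IMWT, Col4a3+/+) and 3 libraries of untreated AS podocytes (IMAS, Col4a3-/-). AS stands for Alport syndrome, a kidney disease caused by loss of a type IV collagen chain, and podocytes are the epithelial cells that cover the glomerular capillaries. Both lines came from male mice aged 8 weeks and carry the H-2kb-tsA58 transgene, a temperature-sensitive SV40 large T antigen under an interferon-inducible promoter. They were grown at 33 °C with 20 U/mL interferon gamma according to the labels, and differentiated for 14 days at 37 °C, a temperature at which this T antigen is unstable. Large T antigen binds and inactivates p53. Its RNA was not among the genes measured, so residual T antigen in either line was not tested. Each genotype was represented by 1 line, so genotype and line cannot be told apart, and because the numbered sets 1 to 3 are not stated to be separate cultures, p-values measure the spread between these libraries, which may be technical.

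The libraries held 45417221 to 54290968 counts each. Expression is given as CPM, the count of a gene scaled to a common library size after TMM adjustment, and AS was compared with WT by edgeR's quasi-likelihood test, with adjusted p under 0.05 over all genes as the threshold. Col4a3, the gene deleted in the AS mice, fell from 1087 ± 170 CPM in WT to 68.8 ± 12.2 CPM in AS podocytes (SD, n = 3 each; adjusted p = 1.31e-07). Markers that define podocytes were partly low or absent: no read of Tcf21 was counted in any library, Nphs1 was at 0.466 CPM in WT and 0.0407 CPM in AS, and Wt1 was at 20.6 and 2.50 CPM, whereas Synpo was at 803 and 526 CPM. Of 12 podocyte markers 9 could be tested, of which 2 were higher and 6 lower in AS, beside 20.4% and 19.6% of all genes tested. Markers of other kidney cells were mixed, and Umod, Aqp2 and Adgre1 were at 0. The 5 endothelial markers summed to 0.730 to 1.35 CPM in WT and 0.178 to 0.603 CPM in AS. Only Kdr of these could be tested, and it was called lower (adjusted p = 0.0441). The 5 leukocyte markers, mostly Csf1r, summed to 11.2 to 15.0 and 5.11 to 7.02 CPM. Csf1r was called lower (10.3 CPM in WT, 3.82 CPM in AS, adjusted p = 9.40e-05). Cd68 (2.10 and 2.06 CPM) and Ptprc (0.248 and 0.141 CPM) were not called. The 5 mesangial and fibroblast markers, nearly all Pdgfrb, summed to 244 to 272 and 119 to 120.0 CPM. Of these 5, Pdgfrb was called lower and Dcn higher (0.538 CPM in WT, 2.35 CPM in AS, adjusted p = 0.00513). The 5 tubule markers, nearly all Lrp2, overlapped between the groups (246 to 307 and 197 to 307 CPM). The part of these differences in the results on p53 genes was not tested, and in bulk RNA fewer cells of a type and less RNA per cell cannot be told apart.

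Large numbers of genes separate the lines, so each count is read against that background. Of 16263 genes tested, 40.1% were called, 20.4% as higher and 19.6% as lower in AS podocytes, and in 52.3% the CPM of the groups did not overlap. Of the 10 p53 genes, 7 were called, 5 higher and 2 lower, and 9 had groups that did not overlap. Their median log2 fold change was 0.24, beside 0.0061 over all genes tested.

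p53 binds DNA as a tetramer to an element made of a pair of 10-base decamers, each with an invariant C and G in its core (the p53 decamer, which is its own reverse complement, so that a search covers both strands). Promoter windows of 300 bases, from 250 bases before to 50 bases after each transcription start, were taken from RefSeq (GRCm38.p6) for 9 of the 10 genes (13 windows). An exact decamer was found in the windows of Trp53, Mdm2, Bax and Ccng1, and a complete element of adjoining decamers with at most 2 mismatches was found in Ccng1 alone. Among all 32851 windows, 8.36% hold an exact decamer and 0.326% such an element, the latter criterion having been chosen after the exact search was seen. The matches above are counted per gene (4 of 9 genes and 1 of 9 genes), whereas these shares are per window. A gene with several windows has more chances of a match. The stretches around the matches are shown here, 5′ to 3′ on the strand of the gene with the match in capitals, because they hold the known binding motif of the factor under study. The window at the upstream start of Cdkn1a, the classical p53 target, is given for comparison.
Ccng1 (chr11:40755442-40755501, minus strand, element with 1 mismatch): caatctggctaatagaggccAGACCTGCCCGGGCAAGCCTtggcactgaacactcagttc
Cdkn1a (chr17:29090886-29090967, plus strand, a decamer and an element with 1 mismatch): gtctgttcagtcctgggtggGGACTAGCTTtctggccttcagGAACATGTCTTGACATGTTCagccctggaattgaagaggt
Mdm2 (chr10:117710915-117710964, minus strand, decamer): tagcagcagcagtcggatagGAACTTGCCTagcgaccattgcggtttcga
Bax (chr7:45467070-45467119, minus strand, decamer): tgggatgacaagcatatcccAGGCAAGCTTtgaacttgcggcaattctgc
Trp53 (chr11:69580264-69580313, plus strand, decamer): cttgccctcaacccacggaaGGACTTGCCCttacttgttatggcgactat
Counted from the transcription start, the decamers begin at position -201 in Bax, -186 in Mdm2 and -75 in Trp53, and the Ccng1 element begins at position -195. The windows of Mdm4, Sesn2, Bbc3, Gdf15 and Eda2r hold no exact decamer, which says only that these letters are not in these windows. The p53-responsive promoter of Mdm2 lies within an intron, outside the window searched. A match is a description of the sequence, and binding was not measured. Of the genes with a match, Mdm2 and Bax were higher in AS podocytes, Ccng1 was lower, and Trp53 and Cdkn1a did not pass the test.

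Trp53 (ENSMUSG00000059552.14, chromosome 11) was at 117, 120.0 and 116 CPM in WT sets 1 to 3 and at 107, 114 and 111 CPM in AS sets 1 to 3. All 3 AS libraries lay below all 3 WT libraries, but the gap was small. The mean was 118 ± 1.94 CPM in WT and 111 ± 3.51 CPM in AS (SD, n = 3), a log2 fold change of -0.09 (SE 0.05, 95% interval -0.20 to 0.02) that did not pass the test (adjusted p = 0.195). The interval corresponds to a fold change between 0.869 and 1.02, and 81.5% of genes tested changed by at least as much as Trp53. A processed pseudogene, Trp53-ps, is annotated, and how the counting assigned reads shared with it is not known. Trp63 and Trp73, the relatives of p53, were at 0.0824 and 0.320 CPM in WT and at 0.122 and 0.107 CPM in AS, too low to be tested. Among 9153 genes with a mean of at least 10 CPM, those whose log2 CPM, centred on their mean over the 6 libraries, lay nearest to that of Trp53 were Cops8, Zfp322a and Hus1, at Euclidean distances of 0.0403, 0.0463 and 0.0509. Each of them varied, like Trp53, within a narrow range.

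Both negative regulators of p53 rose. Mdm2 (ENSMUSG00000020184.16, chromosome 10) was at 477, 448 and 443 CPM in WT and at 729, 704 and 715 CPM in AS podocytes. The libraries of each group lay close together and far from the other group. Mdm2 rose from 456 ± 18.4 to 716 ± 12.9 CPM, by 0.65 on the log2 scale (SE 0.06, 95% interval 0.52 to 0.78, adjusted p = 3.31e-05). Mdm2 is both the regulator of p53 and a transcriptional target of it. Mdm4 (ENSMUSG00000054387.14, chromosome 1) was at 65.7, 62.0 and 66.9 CPM in WT and at 80.1, 77.6 and 94.5 CPM in AS. AS set 3 was the highest library, and the groups did not overlap. The mean rose from 64.9 ± 2.54 to 84.1 ± 9.12 CPM, by 0.37 on the log2 scale (SE 0.08, 95% interval 0.20 to 0.55, adjusted p = 0.00450).

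**Figure D1:**
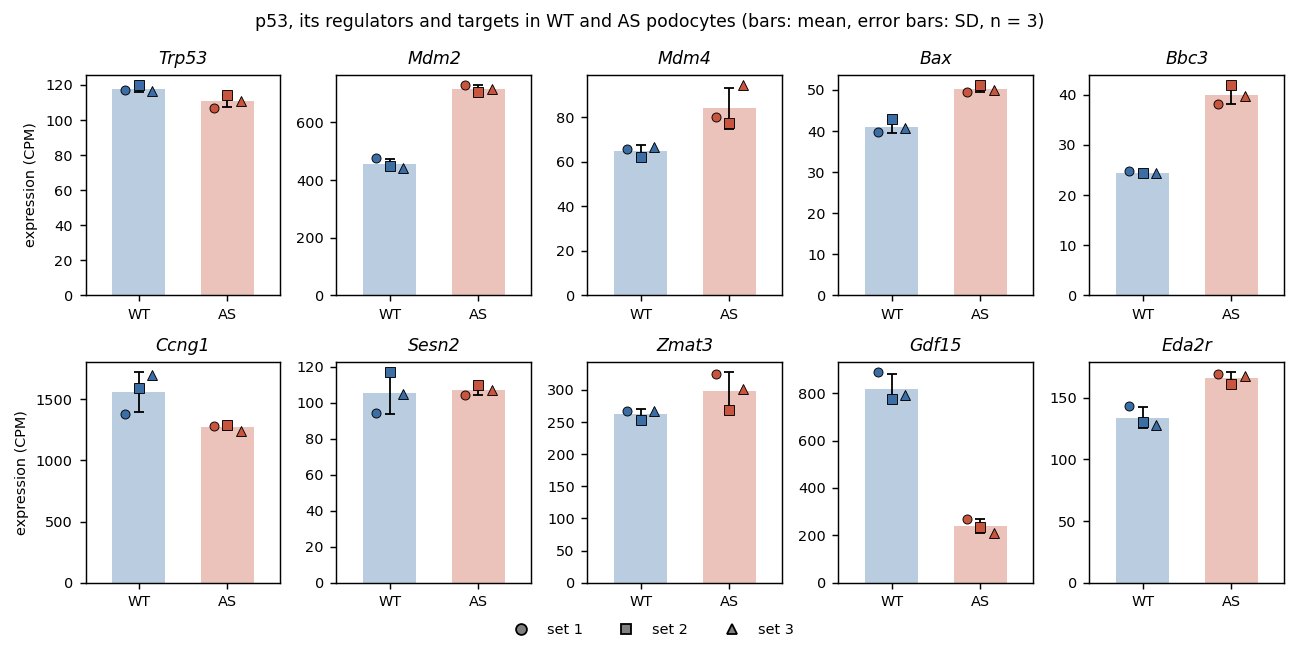
Expression in CPM (y axis, starting at 0, a scale of its own per panel) of the 10 genes in WT (blue) and AS (red) podocytes, with bars for the mean, error bars for the SD (n = 3) and a symbol per library (circle, set 1; square, set 2; triangle, set 3). The libraries of WT and AS overlap in Sesn2 alone, and Gdf15 shows the widest gap, from 818 to 239 CPM.

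Bax and Bbc3 carry out p53-dependent cell death at the mitochondrion. Bax forms the pore in the outer membrane, and Bbc3, also called PUMA, is a BH3-only protein that neutralizes the protective members of the BCL-2 family. Bbc3 (ENSMUSG00000002083.14, chromosome 7) was at 24.7, 24.4 and 24.4 CPM in WT and at 38.1, 41.9 and 39.8 CPM in AS podocytes. The WT libraries hardly differed among themselves, and every AS library was far above them. Bbc3 rose by 0.71 on the log2 scale (SE 0.06, 95% interval 0.56 to 0.85, adjusted p = 3.08e-05), with a 1.63-fold change (95% interval 1.48 to 1.80). Bax (ENSMUSG00000003873.12, chromosome 7) was at 39.7, 42.9 and 40.6 CPM in WT and at 49.5, 51.2 and 50.1 CPM in AS. The groups were separate, and the change was smaller than that of Bbc3. Bax rose from 41.1 ± 1.65 to 50.3 ± 0.853 CPM, a 1.22-fold change (95% interval 1.12 to 1.34, adjusted p = 0.00345). An annotated gene on the same strand, Gm45808, shares exonic sequence with Bax, and how the counting assigned shared reads is not known.

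Ccng1, Sesn2 and Zmat3 act in recovery from stress and in arrest, and did not move together. Ccng1 encodes cyclin G1, which recruits a phosphatase to Mdm2. Ccng1 (ENSMUSG00000020326.8, chromosome 11) was at 1380.2, 1589 and 1701 CPM in WT and at 1278, 1291 and 1242 CPM in AS podocytes. The WT libraries spread widely, and the lowest, set 1, came near the AS libraries without reaching them. The mean fell from 1557 ± 163 to 1270.4 ± 25.3 CPM, a log2 fold change of -0.29 (SE 0.08, 95% interval -0.48 to -0.11, adjusted p = 0.0192). The call was lost without AS set 1, AS set 3, WT set 2 or WT set 3 (adjusted p of 0.0505 to 0.0736), and without WT set 1 the log2 fold change was -0.37 (adjusted p = 0.000363). Sesn2 encodes sestrin 2, a leucine-binding inhibitor of TORC1 signalling. Sesn2 (ENSMUSG00000028893.9, chromosome 4) was at 94.2, 117 and 105 CPM in WT and at 104, 110.0 and 107 CPM in AS. The AS libraries lay inside the WT range. The log2 fold change was 0.02 (SE 0.08, 95% interval -0.15 to 0.19, adjusted p = 0.835), so that the data allow a fold change between 0.903 and 1.14. Zmat3, an RNA-binding zinc finger protein that regulates splicing, (ENSMUSG00000027663.14, chromosome 3) was at 267, 254 and 267 CPM in WT and at 326, 268 and 302 CPM in AS podocytes. AS set 2 was barely above the highest WT library, while AS set 1 was well above it. With a log2 fold change of 0.19 (SE 0.07, 95% interval 0.02 to 0.35 for this gene alone), Zmat3 missed the threshold (adjusted p = 0.0750), and without AS set 2 it passed (log2 fold change 0.25, adjusted p = 0.0250).

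Gdf15 and Eda2r act at the cell surface and beyond it. Gdf15 is a secreted stress cytokine of the TGF-beta superfamily that signals through Gfral and Ret, and its transcription is raised by p53 as well as by the stress factors Atf4 and Ddit3. Gdf15 (ENSMUSG00000038508.8, chromosome 8) was at 888, 775 and 791 CPM in WT and at 268, 237 and 211 CPM in AS podocytes. The highest AS library was well under the lowest WT library. Gdf15 fell by 1.78 on the log2 scale (SE 0.10, 95% interval -1.99 to -1.56, adjusted p = 1.17e-06). Of the 10 genes it alone stood among the largest changes of the whole table, at rank 902 by absolute log2 fold change, or the top 5.55%, whereas Bbc3 and Mdm2 were at 20.3% and 22.4% and the others at 40.1% or further down. Eda2r, also called XEDAR, is a receptor of the TNF receptor superfamily. Eda2r (ENSMUSG00000034457.11, chromosome X) was at 144, 130.4 and 128 CPM in WT and at 169.5, 161 and 168 CPM in AS. Each AS library was above each WT library, although WT set 1 was the nearest. Eda2r rose from 134 ± 8.52 to 166 ± 4.46 CPM, by 0.31 on the log2 scale (SE 0.06, 95% interval 0.17 to 0.45, adjusted p = 0.00302).

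The partners of these secreted and surface proteins were scarce. Eda, which encodes the ligand of Eda2r, was at 0.837 CPM in WT and 0.524 CPM in AS (adjusted p = 0.132), and Edar, which encodes the related receptor, was at 0.246 and 0.692 CPM (adjusted p = 0.0766), while its adaptor Edaradd, at 0.180 and 0.164 CPM, was not tested. No read of Gfral, the Gdf15 receptor, was counted in any library, and a total of 3 counts per group, taken as the limit of detection for counting error alone, would correspond to 0.0209 CPM in the WT and 0.0198 CPM in the AS libraries. Ret, its signalling partner, rose from 0.755 ± 0.339 to 2.08 ± 0.516 CPM (log2 fold change 1.46, adjusted p = 0.00979).

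Levels were compared between genes as CPM per kilobase of exonic sequence, a scale that understates genes with long untranslated or alternative exons such as Mdm4 and Zmat3. In WT podocytes the order of mean levels was Ccng1 (443 CPM per kb), Gdf15 (442), Mdm2 (89.7), Sesn2 (30.3), Trp53 (29.1), Bax (26.1), Zmat3 (22.9), Eda2r (22.7), Bbc3 (11.5) and Mdm4 (4.38). Ccng1 and Gdf15, Sesn2 and Trp53, and Zmat3 and Eda2r are the neighbours whose ranges over libraries overlapped. In AS podocytes the order was Ccng1 (362 CPM per kb), Mdm2 (141), Gdf15 (129), Bax (31.9), Sesn2 (30.8), Eda2r (28.2), Trp53 (27.4), Zmat3 (26.1), Bbc3 (18.8) and Mdm4 (5.68). There Gdf15 was level with Mdm2 within the spread of the libraries, Bax overlapped Sesn2, Eda2r overlapped Trp53, and Trp53 overlapped Zmat3.

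A further 36 established p53 targets were examined in lists of cell cycle arrest, cell death, and repair and metabolism. All 36 were tested, of which 15 were higher, 5 lower and 16 not called, beside 20.4% higher and 19.6% lower among all genes tested. In 19 of the 36 the groups did not overlap, beside 52.3% of all genes tested. Their median log2 fold change was 0.15. Without AS set 3 the count fell from 20 to 12 called, 10 higher and 2 lower, and the lower calls fell from 5 to 2 without WT set 2 and to 3 without AS set 1.

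**Figure D2:**
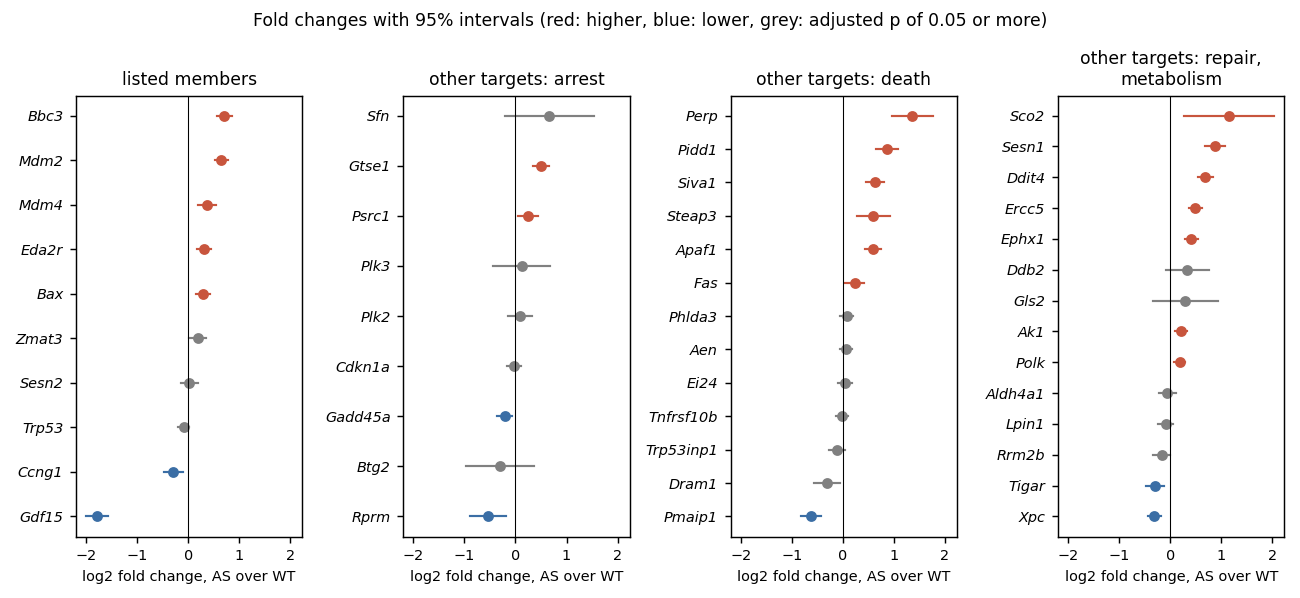
Log2 fold change of AS over WT (x axis) with 95% intervals for the 10 genes and for the other p53 targets by role, in red where higher and blue where lower at an adjusted p under 0.05, and grey otherwise. Most called genes lie to the right of 0 in each panel except arrest, where 2 are on each side, and Gdf15 at -1.78 lies farthest to the left.

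Of the 9 arrest genes, 2 were higher and 2 lower, with a median log2 fold change of 0.09. Cdkn1a, which encodes the CDK inhibitor p21 and is the best known p53 target, was at 991, 895 and 954 CPM in WT and at 940.2, 919 and 918 CPM in AS podocytes. The AS libraries lay within the WT range, and the log2 fold change was -0.03 (SE 0.06, 95% interval -0.18 to 0.11, adjusted p = 0.721). Gtse1, which binds p53 and restrains it in G2, rose from 101 ± 8.69 to 144 ± 5.15 CPM (log2 fold change 0.50, adjusted p = 0.000412), and Psrc1, a spindle protein, from 88.3 ± 7.60 to 105 ± 10.9 CPM (0.25, adjusted p = 0.0448) with overlapping groups. Rprm, a mediator of G2 arrest, fell from 31.7 ± 7.44 to 21.8 ± 1.96 CPM (log2 fold change -0.54, adjusted p = 0.0193), and Gadd45a, a stress sensor, by less (log2 fold change -0.21, adjusted p = 0.0270). The call of Rprm was lost without AS set 1, AS set 3, WT set 2 or WT set 3, that of Gadd45a when any single library but WT set 1 was left out, and that of Psrc1 when any but AS set 1 or WT set 3 was. Btg2, an antiproliferative gene, was at 546, 265 and 210.2 CPM in WT and 309, 286 and 233 CPM in AS, with WT set 1 far above the other two (adjusted p = 0.453).

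Of the 13 cell death genes, 6 were higher (Fas, Apaf1, Perp, Pidd1, Siva1 and Steap3) and 1 lower, with a median of 0.08 on the log2 scale. Fas, the death receptor, was close to the threshold (adjusted p = 0.0470), and its call was lost when any library but WT set 3 was left out. Pidd1, the scaffold of the caspase-2 complex, was at 32.5, 34.3 and 38.4 CPM in WT and at 56.1, 65.9 and 69.9 CPM in AS, a 1.82-fold change (adjusted p = 9.74e-05). Apaf1, the core of the apoptosome, rose from 102 ± 7.18 to 154 ± 8.24 CPM (log2 fold change 0.59, adjusted p = 0.000140), and Siva1, a proapoptotic adaptor, from 23.4 ± 1.11 to 36.3 ± 2.61 CPM (0.63, adjusted p = 0.000177). Perp, a membrane protein of desmosomes, was at 27.2, 45.2 and 49.6 CPM in WT and at 101, 104 and 108 CPM in AS. WT set 1 was low, yet every AS library was above every WT library, and the log2 fold change was 1.36 (adjusted p = 0.000314), or 1.14 without WT set 1. Pmaip1, also called NOXA and named here after its values were seen, moved against Bbc3, the other BH3-only target: it fell from 117 ± 14.9 to 75.6 ± 3.98 CPM (log2 fold change -0.62, adjusted p = 0.000528).

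Of the 14 repair and metabolism genes, 7 were higher (Polk, Ercc5, Sesn1, Sco2, Ephx1, Ak1 and Ddit4) and 2 lower (Xpc and Tigar), with a median of 0.25 on the log2 scale. Ddit4, also called REDD1, an inhibitor of TORC1, rose from 67.4 ± 2.99 to 108 ± 7.56 CPM (log2 fold change 0.69, adjusted p = 4.53e-05). Sesn1, the paralogue of Sesn2, was at 18.5, 18.0 and 15.2 CPM in WT and at 32.9, 31.1 and 31.0 CPM in AS, a log2 fold change of 0.88 (adjusted p = 4.89e-05). Ercc5, an endonuclease of nucleotide excision repair, rose from 88.9 ± 4.82 to 125 ± 2.78 CPM (0.49, adjusted p = 0.000147), and Ephx1, an epoxide hydrolase, from 329 ± 1.62 to 437 ± 14.8 CPM (0.41, adjusted p = 0.000360). Without AS set 3 the calls in this list fell from 9 to 5, and the lower calls were 4 without WT set 1 and 1 without WT set 2.

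Whole chromosomes differed between the lines, and some of the genes above sit on them. Over genes with a mean of at least 4 CPM, the median log2 fold change was 0.32 on chromosome 8 and on chromosome 10, between 0.19 and 0.20 on chromosomes 5, 15 and 19, and as low as -0.20 on chromosome 6 and -0.16 on chromosome 4. Mdm2 lies on chromosome 10, where 52.4% of genes tested were called higher, and its log2 fold change minus the chromosome median was 0.33 in place of 0.65. Of the other targets, 6 lie on chromosome 10, 4 of which were higher (Apaf1, Perp, Sesn1 and Ddit4) and none lower. Their median of 0.64 came to 0.31 once the chromosome median was subtracted. Among the 30 targets on other chromosomes, 11 were higher and 5 lower, with a median of 0.09. Gdf15 went against its chromosome, so its difference from the median of chromosome 8 was -2.10. Sesn2 stood 0.19 above the median of chromosome 4, and the median over the 10 genes was 0.29 after subtraction in place of 0.24. These differences from the chromosome are values without a test, and the part of the chromosome shifts in each change was not tested.

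**Figure D3:**
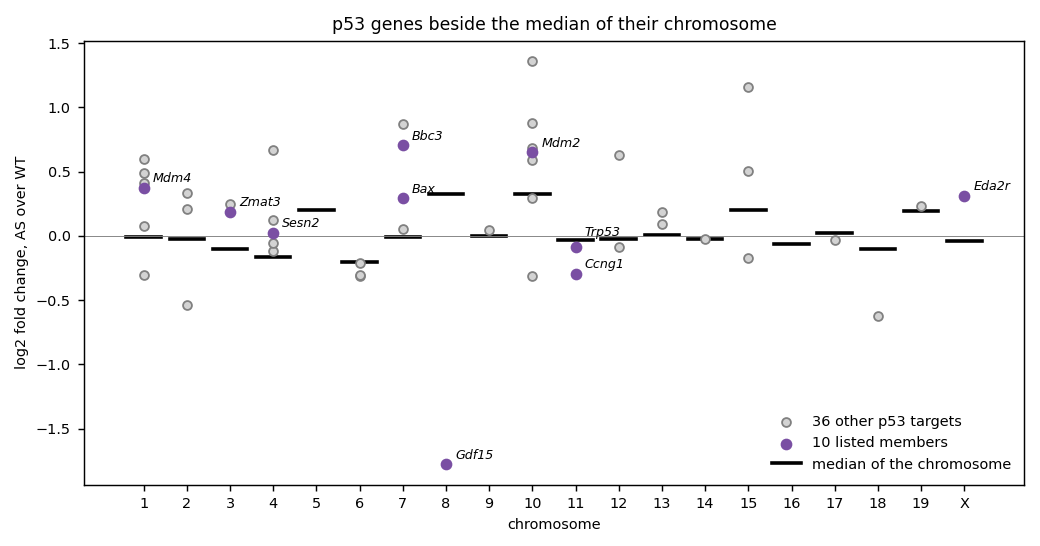
Log2 fold change of AS over WT (y axis) of the 10 genes (purple, named) and the 36 other p53 targets (grey) by chromosome (x axis), with the median of all genes of the chromosome with a mean of at least 4 CPM as a black line. Mdm2 and most targets on chromosome 10 stand above a raised median of 0.32, whereas Gdf15 at -1.78 stands far under the equally raised median of chromosome 8.

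Other genes that act on p53 were split. Of 21 regulators, 7 were higher, 2 lower and 12 not called, beside 20.4% higher and 19.6% lower among all genes tested. The median log2 fold change of the 21 was 0.07. Rchy1, a ubiquitin ligase for p53 also called Pirh2, rose from 37.5 ± 0.728 to 55.8 ± 2.92 CPM (log2 fold change 0.57, adjusted p = 9.07e-05). Dyrk2, a kinase that phosphorylates p53, rose from 50.9 ± 3.90 to 77.4 ± 3.30 CPM (0.61, adjusted p = 0.000137), of which 0.28 was left after the median of chromosome 10 was subtracted. Hipk2, another kinase of p53, moved the opposite way: it was at 205, 144 and 164 CPM in WT and at 91.3, 63.7 and 83.6 CPM in AS, and it fell by 1.11 on the log2 scale (SE 0.15, adjusted p = 0.000388). Ppp1r13b, which encodes the p53 cofactor ASPP1, rose from 14.8 ± 0.482 to 20.9 ± 0.240 CPM (0.50, adjusted p = 0.000556), while its relative Trp53bp2, which encodes ASPP2, was the other gene that was lower. Cdkn2a, whose alternative reading frame product ARF inhibits Mdm2, was at 123, 134 and 143 CPM in WT and at 154, 157 and 154 CPM in AS, a log2 fold change of 0.22 (adjusted p = 0.0218). Counts per gene cannot tell ARF from p16, the other product of Cdkn2a, and the call was lost when any single AS library or WT set 2 was left out. The damage kinases Atm, Atr, Chek1 and Chek2 were not called. Rpl5 was among the 7 higher genes and Rpl11 was not called, but both have many processed pseudogenes and their counts are uncertain. The call of Rpl5 (adjusted p = 0.0354) was lost when any single library was left out and with no low-count filter.

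The BCL-2 family, to which Bax and Bbc3 belong, moved in both directions. A list of 12 members was examined that leaves out Bax, Bbc3 and Pmaip1, described above. Of these 12, 10 were tested, of which 3 were higher and 3 lower, beside 20.4% and 19.6% of all genes tested. The median log2 fold change of the 10 was 0.03. Bmf, a BH3-only protein released from the cytoskeleton, was at 1.85, 2.05 and 1.21 CPM in WT and at 11.7, 8.89 and 9.94 CPM in AS podocytes. It rose 5.94-fold (95% interval 4.33 to 8.15, adjusted p = 1.30e-05), the largest increase in the list. The protective genes Bcl2 and Bcl2l2 fell, from 64.5 ± 3.23 to 44.2 ± 1.84 CPM (log2 fold change -0.54, adjusted p = 0.000143) and from 80.2 ± 8.90 to 57.4 ± 3.50 CPM (-0.48, adjusted p = 0.00172). Bok, a pore former related to Bax, fell from 38.7 ± 4.63 to 23.1 ± 2.32 CPM (-0.75, adjusted p = 0.000454). The protective genes Bcl2l1 and Mcl1 were not called, at log2 fold changes of 0.04 (95% interval -0.11 to 0.19) and 0.01 (-0.22 to 0.25). Without AS set 3, Bmf, Bcl2, Bcl2l2 and Bok were called and Bcl2l11 and Bid were not.

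The integrated stress response, a pathway that shares Gdf15 and Sesn2 with p53, was examined as 11 genes. Of these, 6 were higher, none lower and 5 not called, beside 20.4% higher and 19.6% lower among all genes tested. The median log2 fold change of the 11 was 0.47, or 0.27 after the chromosome medians were subtracted. Atf4, its main transcription factor, rose from 172 ± 9.64 to 239 ± 9.41 CPM (log2 fold change 0.47, adjusted p = 0.000303). Ddit3, also called CHOP, was at 11.0, 16.6 and 13.5 CPM in WT and at 27.7, 29.9 and 24.3 CPM in AS (0.99, adjusted p = 0.000492), and lies on chromosome 10. Atf5, a related factor, rose from 63.0 to 93.6 CPM (adjusted p = 0.00371) and Psat1, an enzyme of serine synthesis, from 28.3 to 43.4 CPM (adjusted p = 0.00342). Atf3 was at 34.7, 4.94 and 3.08 CPM in WT and 11.6, 6.05 and 5.41 CPM in AS. WT set 1 stood apart, as it did for Btg2, and Atf3 was not called with it (adjusted p = 0.377), whereas without it the log2 fold change was 0.93 (adjusted p = 0.0374). While Atf4 and Ddit3 rose in AS podocytes, Gdf15 fell and Sesn2 was not called.

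**Figure D4:**
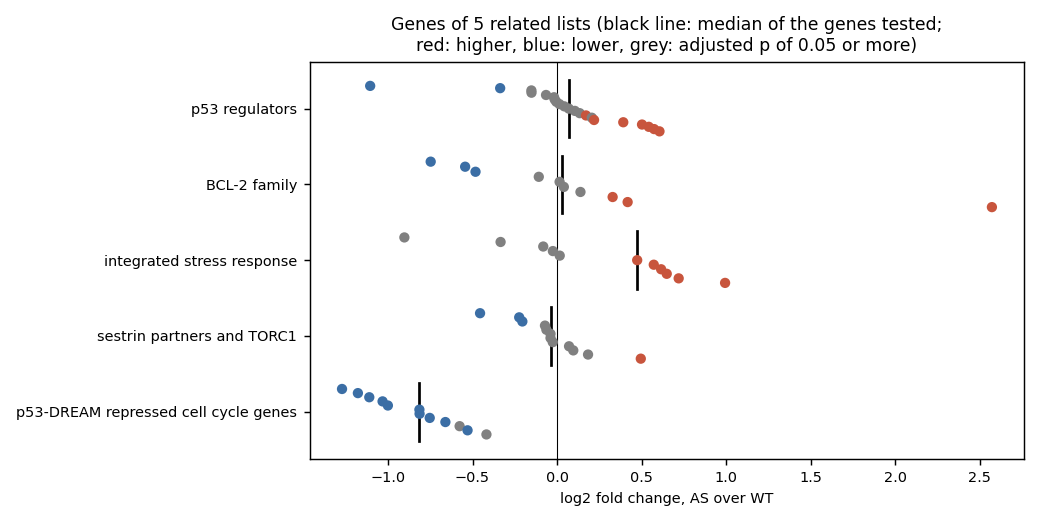
Log2 fold change of AS over WT (x axis) of each tested gene in 5 lists related to p53, a point per gene, in red where higher and blue where lower at an adjusted p under 0.05, with a black line for the median. The integrated stress response has a median of 0.47 and the p53-DREAM cell cycle genes one of -0.81, while the other medians lie near 0; the point at 2.57 is Bmf.

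Among 12 sestrin partners and TORC1 genes, 1 was higher, 3 were lower and 8 were not called, with a median of -0.04 on the log2 scale. The shares over all genes tested were 20.4% higher and 19.6% lower. Prkaa2, a catalytic subunit of AMPK, fell from 98.5 to 71.9 CPM (log2 fold change -0.46, adjusted p = 0.000298), and Wdr59, a subunit of the GATOR2 complex that sestrins bind, rose from 17.7 to 24.9 CPM (0.49, adjusted p = 0.00192). Sec13 and Mtor were also lower (adjusted p = 0.0254 and 0.0469), and only 1 of the 3 lower calls was left when WT set 3, AS set 1 or AS set 3 was omitted, or when counts were scaled by library size alone. Sesn3, the remaining sestrin, was not called (log2 fold change -0.04, 95% interval -0.30 to 0.22).

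p53 also represses cell cycle genes indirectly, through p21 and the DREAM complex. Of 12 such genes 10 were lower, none higher and 2 not called (Mybl2 and Cenpa), beside 19.6% lower and 20.4% higher among all genes tested. The median log2 fold change of the 12 was -0.81. Foxm1, a transcription factor of G2 and mitosis, fell from 25.0 ± 3.48 to 12.5 ± 0.209 CPM (95% interval of the fold change 0.426 to 0.587, adjusted p = 7.13e-05). Ccnb1 and Ccnb2, the mitotic cyclins, fell from 13.2 to 6.09 CPM and from 7.78 to 3.80 CPM (adjusted p = 0.000594 and 0.00356), and Bub1, a spindle checkpoint kinase, from 8.89 to 3.93 CPM (adjusted p = 0.000813). Summed over the list, expression was 146, 159 and 105 CPM in WT and 72.6, 78.0 and 81.2 CPM in AS, so that WT set 3 was the lowest of its group and still above every AS library. Between 8 and 12 of the genes were lower when any library was left out. Cdkn1a, the link between p53 and DREAM, differed by less than the spread between WT libraries, and the part of a difference in the share of dividing cells in these values was not tested.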

How the data were processed

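RNA-seq of 3 WT and 3 AS podocyte libraries was analysed. The authors deposited whole-number read counts per gene, without normalization. The submitters' processing notes list FastQC, Trim Galore, STAR, edgeR and the build mm39, while the sources used here name no counting tool, annotation release or strand setting. Of 57132 identifiers, 51880 matched GENCODE M21 (GRCm38) after removal of the version, which gave symbols, chromosomes and exonic length, and no coordinates were mixed. In addition, 28476 genes had 0 counts in every library.

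The tools were edgeR 4.0.16, DESeq2 1.42.0 and limma 3.58.1 under R 4.3.3. Low counts were removed with filterByExpr at its defaults. A gene was kept with about 10 counts, judged on CPM, in as many libraries as the smallest group holds, and 15 in total. TMM factors were applied, and genotype was tested as a single term by the quasi-likelihood method of edgeR, two-sided. The p-values were adjusted by Benjamini and Hochberg over all genes kept. The SE was approximated from the log2 fold change and its F statistic (their ratio after taking the root of F). Intervals are for single genes. The procedure was tested on simulated data. With 3 libraries a group, exact permutation p-values are at least 0.10. No molecular identifiers are mentioned, so reads can be copies of a molecule and limits from counts cover counting error only. Replicates of a group differed by more than sampling noise (chi-square per degree of freedom between 9.06 and 45.2).

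The 10 genes and the gene lists were chosen with earlier results of these data known. Named were the 10 genes, Col4a3, Cdkn1a, Cdkn2a, up to 4 called genes a list in order of adjusted p, lists of up to 5 genes in full and the 3 genes nearest to Trp53. Others named with values (Pmaip1, Fas, Rpl5, Btg2, Atf3, Sesn3, Bcl2l1, Mcl1) were picked afterwards. Alternatives were DESeq2 size factors, library size only, DESeq2, limma-voom, no low-count filter, a minimum mean of 1 CPM, the set number as a replicate block, omission of each library, and subtraction of chromosome medians.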

Additional observations from a re-analysis of the deposited data

How the results depend on the processing

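Of 130 alternative values of the 10 genes with a test, 120 kept their direction and side of the threshold, 4 lost the call, 4 gained it and 2 changed sign. Trp53, Mdm2, Mdm4, Bax, Bbc3, Gdf15 and Eda2r kept theirs under all 13 alternatives each. Ccng1 lost its call in 4 of the fits with a library left out, over which its log2 fold change ran from -0.37 to -0.23. Sesn2 changed sign without AS set 2 (-0.0016) and without WT set 1 (-0.052), within a range of -0.052 to 0.10 over the fits with a library left out, and always far from the threshold. Zmat3 passed with library size only (0.21, adjusted p = 0.0333), with no low-count filter (0.19, adjusted p = 0.0366), with the replicate block (0.18, adjusted p = 0.0328) and without AS set 2. Subtraction of chromosome medians moved Mdm2 to 0.33, Gdf15 to -2.10 and Sesn2 to 0.19. With 1 library left out, 6 to 8 of the 10 genes, 12 to 21 of the other 36 targets, 28 to 37 genes of the other lists and 5120 to 6776 of all genes were called. The 12 targets, without AS set 3, were the only count of these 4 to move by over 1.5 times from the full fit, and the cause was not tested. Under no scaling did the median of all genes exceed 0.034 in size. Libraries with the same number were weakly alike, with correlations of deviations of 0.111, 0.082 and 0.0472 against -0.103 to 0.0362 for different numbers, and each library correlated best with its own number. These are hints from the data only. With the replicate block 7066 genes, 8 of the 10 genes and 22 other targets were called, and apart from Zmat3 no call of the 10 genes changed.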
